A study of Mus musculus with 6 samples.

Results

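The potassium, calcium and TRP channel genes of cancer-associated fibroblasts were taken from a table of read counts by their symbols. The rule took each symbol that begins with Kcn followed by letters and a digit, with Cacna, Cacnb or Cacng, or with Trpc, Trpm or Trpv followed by a digit, together with Piezo1, Piezo2, Orai1, Orai2, Orai3, Abcc8 and Abcc9. It found 77 of the 18197 symbols of the table. Of these 77, 70 passed the filter on low counts and were tested, among 16543 tested genes. Cacna1d, Kcng2, Kcnh3, Kcnj10, Kcnj12, Kcnk12 and Trpv3 did not pass it. The pattern also matched Trpc4ap, which encodes a protein that binds TRPC4, and Kcnq1ot1, a long non-coding RNA transcribed antisense to Kcnq1. Neither is a channel subunit: their values are given apart, but both stay in the counts of channel genes below.

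The cells were sorted by flow cytometry from mammary tumours of C57BL/6 mice that carry the polyoma middle T oncogene (PyMT), harvested at 16 to 20 weeks. Both groups carry the oncogene: 3 libraries are labelled WT and 3 are labelled mPGES-1 KO, for loss of microsomal prostaglandin E synthase-1, the enzyme that makes prostaglandin E2. The sources used here do not say which promoter drives the oncogene, how the knockout was made or which surface markers defined the sort. The question the series title names is which transcripts depend on prostaglandin E2.

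Potassium channels let potassium leave the cell and so hold the membrane potential negative, and in contractile cells this keeps voltage-gated calcium channels closed. ATP-sensitive potassium channels pair an inwardly rectifying pore with a sulfonylurea receptor, and the Kcnj8 and Abcc9 pair is known from pericytes and vascular smooth muscle. TRPC channels admit calcium and sodium downstream of phospholipase C, ORAI channels admit calcium when the stores of the endoplasmic reticulum are emptied, and PIEZO channels open when the membrane is stretched.

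Total counts ran from 37432510 to 43648450 in the WT libraries and from 23013498 to 37249186 in the mPGES-1 KO libraries, and 3 counts stood for 0.0683 to 0.126 CPM (counts per 1000000 counts of the scaled library total). Values of single libraries are given in the order of replicates 1, 2 and 3. Ptges, the gene of mPGES-1, was at 31.9, 19.2 and 27.9 CPM in WT and at 186, 137 and 129 CPM in mPGES-1 KO. The transcript of the targeted gene was thus higher where the label says mPGES-1 KO (log2 fold change 2.51 ± 0.31 SE, adjusted p = 0.0171 in edgeR). Counts summed over a whole gene do not show whether a deleted exon is missing, so group names below are those of the labels. Fibroblast markers were abundant in both groups: the summed counts of 11 markers made up 1.62% ± 0.888 (SD, n = 3) of the WT counts and 1.10% ± 0.568 (n = 3) of the mPGES-1 KO counts. The log2 fold change was negative for 8 of the 11 and positive for 3, with a median of -1.02. Dcn, a matrix proteoglycan, was at 4320 ± 2793 CPM in WT and 5805 ± 2817 CPM in mPGES-1 KO with overlapping groups, and Col1a1, a chain of type I collagen, was at 3897 ± 2765 and 688 ± 453 CPM with the groups apart (SD, n = 3 each; adjusted p = 0.789 and 0.1003 in edgeR). Thy1, a surface marker of fibroblasts and pericytes, fell from 213 ± 54.8 to 22.9 ± 11.8 CPM (n = 3 each) and was the 1 called gene of the 11. The libraries also held epithelial transcripts. Counts of 16 luminal epithelial markers made up 1.68% ± 0.273 of the WT counts and 4.79% ± 0.675 of the mPGES-1 KO counts (SD, n = 3 each). Their share was thus near that of the fibroblast markers in WT and above it in mPGES-1 KO.

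Of the 70 tested channel genes, 5 differed between the groups at an adjusted p under 0.05 in edgeR's quasi-likelihood test. Kcne3, an accessory subunit of potassium channels, was higher in the mPGES-1 KO libraries. Among the lower genes were Kcne4, another such subunit, Abcc9, the receptor subunit of the ATP-sensitive potassium channel, and Cacnb3, a calcium channel subunit. The 5 are 7.14% of the tested channel genes, beside 2.76% of all tested genes called in either direction. By direction, 1 channel gene (1.43%) was called higher beside 1.2% of all genes, and 4 (5.71%) were called lower beside 1.56%. The other 65 did not pass, and 17 of the 70 had an unadjusted p under 0.05, as had 3157 of the 16543. The median log2 fold change was -0.43 over the 70 and -0.04 over all tested genes. DESeq2 called 15 of the 70 and 2093 of the 16543, and limma-voom called 3 and 438.

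For some channel genes the libraries of the 2 groups did not overlap at all. For 3 (4.29%) every mPGES-1 KO library lay above every WT library, beside 12.2% of all tested genes. For 17 (24.3%) every mPGES-1 KO library lay below every WT library, beside 15.7% of all tested genes. Many channel genes are weakly transcribed in these cells: the mean over the 6 libraries was under 1 CPM for 21 of the 77, from 1 to 10 CPM for 31, from 10 to 100 CPM for 22 and above 100 CPM for 3. Of all symbols in the table, 18.9% had a mean under 1 CPM and 10.8% a mean above 100 CPM. All 5 called genes had a mean of 10 CPM or more, as had 25 channel genes in all, with a median log2 fold change of -1.29. The 9660 tested genes at that level had a median of -0.01. Of these 9660, 195 were called higher and 244 lower, beside 198 and 258 calls at all levels. Most calls over all genes were thus at that level too.

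**Figure D1:**
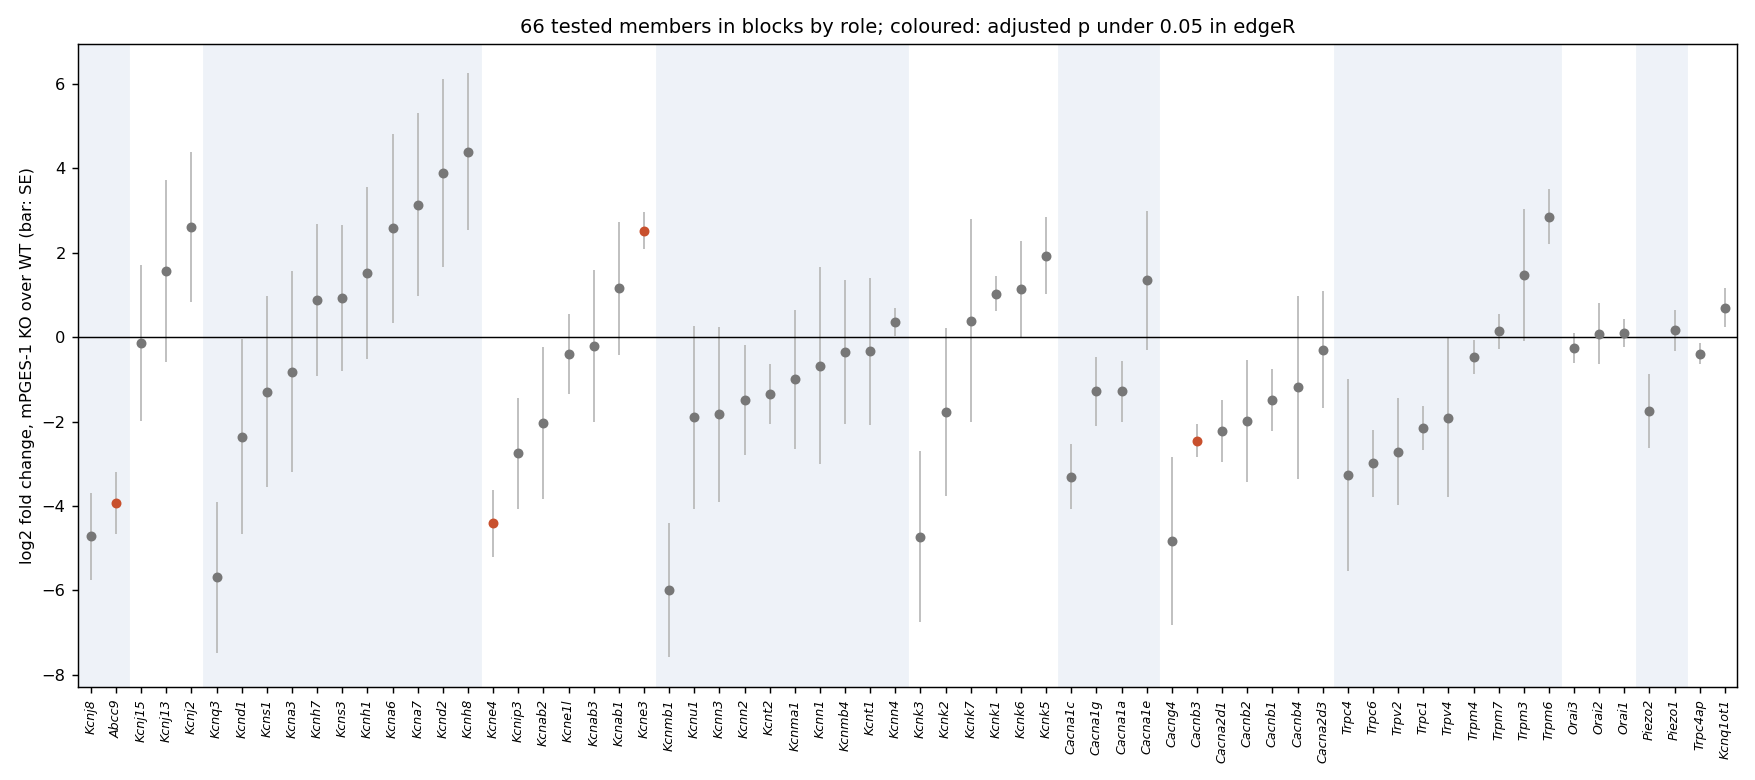
Log2 fold change of mPGES-1 KO over WT for 66 tested channel genes, in shaded blocks by role, with bars for the standard error and colour for an adjusted p under 0.05 in edgeR. The coloured points are Abcc9, Kcne4, Kcne3 and Cacnb3, and the 7 accessory subunits of voltage-gated calcium channels all lie below 0. Of all 16543 tested genes, 8543 had a negative log2 fold change.

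The promoters of Kcnj8, Abcc9 and Kcne4, whose mPGES-1 KO libraries were all below WT, and of Kcne3, whose mPGES-1 KO libraries were all above WT, are shown to let the windows be compared. Each runs from 250 bases before to 50 bases after a start site of RefSeq on GRCm38.p6, 5′ to 3′ on the strand of the gene, and 58 of the 77 symbols have such a window. Capitals mark matches, on either strand, to any of the motifs searched: the CArG box by name, the cyclic AMP response element TGACGTCA, its half-site TGACG, the AP-1 site TGANTCA and the RBPJ site TGGGAA. The half-site lies within the full element, so each full match is also a half-site match.
Kcnj8, chr6:142571565-142571864, minus strand: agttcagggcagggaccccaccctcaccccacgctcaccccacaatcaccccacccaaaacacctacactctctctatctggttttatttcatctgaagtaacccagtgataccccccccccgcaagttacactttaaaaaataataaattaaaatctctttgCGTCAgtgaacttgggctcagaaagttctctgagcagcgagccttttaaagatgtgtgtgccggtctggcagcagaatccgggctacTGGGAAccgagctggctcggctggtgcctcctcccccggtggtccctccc
Abcc9, chr6:142702225-142702524, minus strand: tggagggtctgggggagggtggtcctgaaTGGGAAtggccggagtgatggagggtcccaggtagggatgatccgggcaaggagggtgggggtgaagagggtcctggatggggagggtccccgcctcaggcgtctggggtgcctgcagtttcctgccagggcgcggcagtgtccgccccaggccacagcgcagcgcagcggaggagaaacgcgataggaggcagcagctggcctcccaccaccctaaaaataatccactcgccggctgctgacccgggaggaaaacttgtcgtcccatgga
Kcne4, chr1:78816661-78816960, plus strand: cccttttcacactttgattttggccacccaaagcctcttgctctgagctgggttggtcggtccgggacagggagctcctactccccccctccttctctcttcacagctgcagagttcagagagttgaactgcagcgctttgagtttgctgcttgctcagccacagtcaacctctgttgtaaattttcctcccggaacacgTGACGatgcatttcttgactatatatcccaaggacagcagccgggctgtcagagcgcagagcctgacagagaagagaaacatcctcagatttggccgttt
Kcne3, upstream start, chr7:100176420-100176719, plus strand: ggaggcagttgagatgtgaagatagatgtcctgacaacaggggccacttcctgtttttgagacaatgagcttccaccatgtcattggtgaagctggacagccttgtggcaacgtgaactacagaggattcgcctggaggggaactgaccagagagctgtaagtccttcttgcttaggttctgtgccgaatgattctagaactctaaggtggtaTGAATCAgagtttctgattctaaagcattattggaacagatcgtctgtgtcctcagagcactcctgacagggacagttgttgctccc
Kcne3, downstream start, chr7:100178433-100178732, plus strand: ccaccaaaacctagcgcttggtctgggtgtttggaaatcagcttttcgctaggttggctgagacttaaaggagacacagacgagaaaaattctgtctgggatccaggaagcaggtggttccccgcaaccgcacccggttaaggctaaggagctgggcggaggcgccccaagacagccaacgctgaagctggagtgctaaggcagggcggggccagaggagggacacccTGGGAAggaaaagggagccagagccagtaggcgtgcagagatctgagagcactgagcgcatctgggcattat

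Counted from the start site, the window of Kcnj8 held the half-site on the opposite strand at -87 to -83 and TGGGAA at 1 to 6. The window of Abcc9 held TGGGAA at -221 to -216. That of Kcne4 held the half-site at -50 to -46. The upstream window of Kcne3 held the AP-1 match TGAATCA at -37 to -31, and the downstream window held TGGGAA at -22 to -17. No motif was in all 4 genes' windows. Among 32851 windows of the same length, 20.8% held the half-site, 1.79% the full element, 7.81% the AP-1 site, 25.6% the RBPJ site and 1.63% the CArG box. These matches describe letters in a window and do not show that a factor binds there.

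Kcnj8 encodes Kir6.1, the pore of the vascular ATP-sensitive potassium channel, and Abcc9 encodes SUR2, the sulfonylurea receptor that surrounds it. Both lie on the minus strand of chromosome 6 in GRCm38, Kcnj8 at chr6:142564837-142571614 and Abcc9 at chr6:142587862-142702315, with 16247 bases between them. Kcnj8 was at 1109, 1259 and 279 CPM in WT and at 6.91, 16.2 and 77.6 CPM in mPGES-1 KO. Every WT library was above every mPGES-1 KO library, and the closest pair were WT replicate 3 and mPGES-1 KO replicate 3. The WT mean of 882 ± 528 CPM was 26.3 times the mPGES-1 KO mean of 33.6 ± 38.4 CPM (SD, n = 3 each). The spread within each group was wide, and the difference missed the threshold (log2 fold change -4.71 ± 1.03 SE, adjusted p = 0.0583 in edgeR). DESeq2 and limma-voom called it, with adjusted p of 8.27e-08 and 0.0393. Without mPGES-1 KO replicate 3 its log2 fold change was -6.26, with an adjusted p of 0.0677.

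Abcc9 was at 257, 187 and 65.0 CPM in the WT libraries and at 7.24, 4.86 and 21.4 CPM in the mPGES-1 KO libraries. As for Kcnj8, WT replicate 3 was the lowest WT library and mPGES-1 KO replicate 3 the highest of its group. Abcc9 fell 15.2 times between the group means, from 170 ± 97.2 to 11.2 ± 8.95 CPM (SD, n = 3 each), with a log2 fold change of -3.92 ± 0.73 and an adjusted p of 0.0383 in edgeR. DESeq2 called Abcc9 too, while limma-voom did not (adjusted p = 0.0661). Per kilobase of exon the pore transcript exceeded that of the receptor in all 6 libraries, by 14.2, 22.1 and 14.1 times in WT and by 3.14, 10.9 and 11.9 times in mPGES-1 KO. Abcc8 and Kcnj11, the receptor and pore of the pancreatic form of the channel, were not analysed here.

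Between the groups, pericyte markers moved with this pair. Of 14 markers of pericytes and vascular smooth muscle cells, 9 were called lower and none higher, beside 1.56% and 1.2% of all tested genes. The median log2 fold change of the 14 was -3.89. Their summed counts were 0.599%, 0.889% and 0.339% of all WT counts and 0.0523%, 0.0243% and 0.0347% of all mPGES-1 KO counts, 16.4 times higher in WT. None of the 14 was at 0 over the 6 libraries. Rgs5, a regulator of G protein signalling and a defining pericyte gene, was at 1554 ± 717 CPM in WT and 87.4 ± 35.2 CPM in mPGES-1 KO (SD, n = 3 each). Higd1b, another pericyte gene, was at 638 ± 425 and 7.73 ± 4.38 CPM. Of the 5 markers not called, Cnn1 went the other way, at 7.92 ± 7.09 CPM in WT and 11.5 ± 9.20 CPM in mPGES-1 KO. Myh11 was at 28.6 ± 25.1 and 3.82 ± 4.67 CPM, and the groups overlapped for both. WT replicate 3 was the lowest WT library both in the summed marker share and in Kcnj8, Abcc9 and Kcne4. The share was highest in WT replicate 2, as was Kcnj8, while Abcc9 and Kcne4 were highest in WT replicate 1. In mPGES-1 KO, replicate 1 had the highest share and the lowest Kcnj8. There replicate 3 had the highest Kcnj8 and Abcc9 and the lowest Kcne4. In bulk libraries, fewer cells of a type and less RNA per cell cannot be told apart, and the part of pericyte content in the channel differences was not tested.

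**Figure D2:**
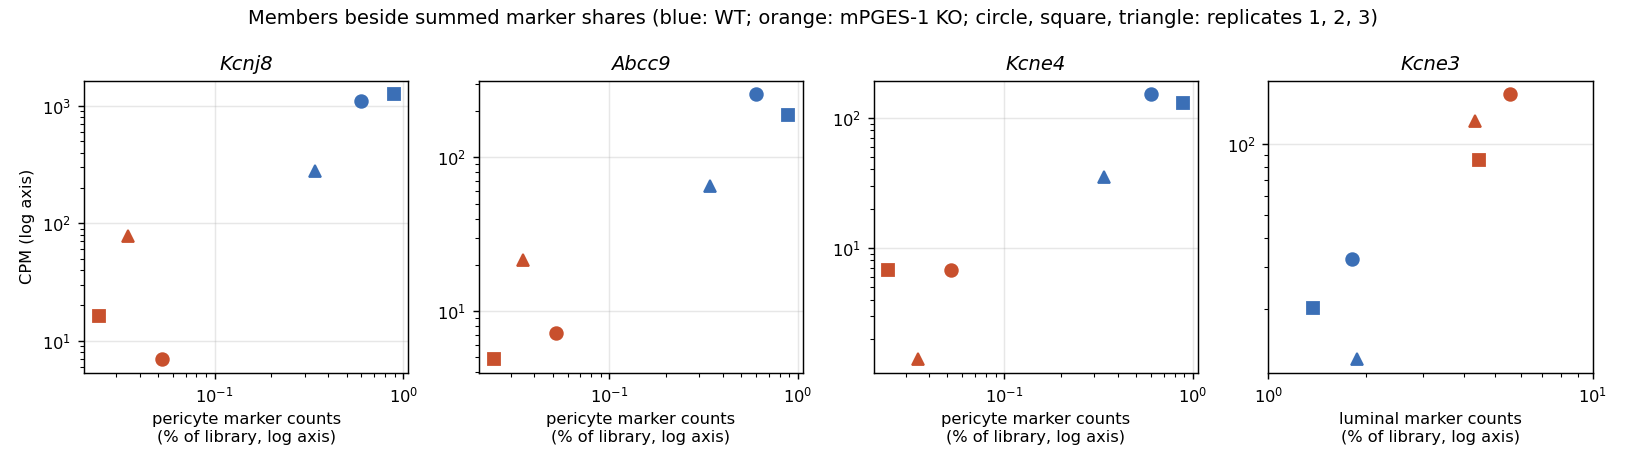
CPM of Kcnj8, Abcc9 and Kcne4 against the percent of each library's counts from 14 pericyte markers, and of Kcne3 against that of 16 luminal epithelial markers, all on log axes, with 1 point per library. The 3 WT libraries lie at the upper right of the first 3 panels, at 0.339% to 0.889%, and the 3 mPGES-1 KO libraries at the upper right of the last, at 4.34% to 5.57%.

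The KCNE proteins are small subunits with a single membrane span that change the gating of voltage-gated potassium pores. Kcne3 is known from epithelia, where it holds KCNQ1 open, and Kcne4 inhibits KCNQ1 and is found in vascular smooth muscle. Kcne4 (chr1:78816758-78820028 in GRCm38) was at 151, 130 and 34.9 CPM in WT and at 6.73, 6.79 and 1.39 CPM in mPGES-1 KO. The groups were apart, with WT replicate 3 nearest to the mPGES-1 KO libraries. Kcne4 fell 21.2 times between the means, from 105 ± 62.0 to 4.97 ± 3.10 CPM (SD, n = 3 each; log2 fold change -4.41 ± 0.80 SE, adjusted p = 0.0349 in edgeR). DESeq2 called it too, and limma-voom did not (adjusted p = 0.0961).

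Kcne3 (chr7:100176502-100184869) was at 32.5, 20.1 and 12.2 CPM in the WT libraries and at 162, 85.7 and 125 CPM in the mPGES-1 KO libraries. Here every mPGES-1 KO library was above every WT library. Kcne3 rose 5.75 times between the means, from 21.6 ± 10.2 to 124 ± 38.2 CPM (SD, n = 3 each; log2 fold change 2.52 ± 0.44 SE, adjusted p = 0.0323 in edgeR), and both DESeq2 and limma-voom called it. The order of the 2 subunits differed between the groups: per kilobase of exon Kcne4 was 3.12, 4.34 and 1.91 times the level of Kcne3 in WT, and Kcne3 was 36.0, 18.9 and 135 times the level of Kcne4 in mPGES-1 KO. Kcnq1, a pore that both can bind, was not analysed here.

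Between the groups, luminal epithelial markers moved with Kcne3. Of 16 such markers 6 were called higher and none lower, beside 1.2% and 1.56% of all tested genes, with a median log2 fold change of 1.87. Their summed counts were 1.81%, 1.37% and 1.87% of all WT counts and 5.57%, 4.47% and 4.34% of all mPGES-1 KO counts, 2.85 times higher in mPGES-1 KO, and none of the 16 was at 0. Epcam, an epithelial adhesion molecule, was at 484 ± 147 CPM in WT and 4443 ± 615 CPM in mPGES-1 KO (SD, n = 3 each), and Krt8, a luminal keratin, at 493 ± 83.9 and 2754 ± 642 CPM. The groups overlapped for Wfdc18, Elf5 and Muc1. Wfdc18 was at 6895 ± 3176 and 7322 ± 2548 CPM (adjusted p = 0.945 in edgeR), Elf5 at 42.7 ± 17.2 and 67.3 ± 20.7 CPM, and Muc1 at 104 ± 71.3 and 194 ± 74.6 CPM. Within the groups the orders differed in part: WT replicate 3 had the highest share and the lowest Kcne3, at 12.2 CPM. In mPGES-1 KO, replicate 1 was highest in both, while the share was lowest in replicate 3 and Kcne3 in replicate 2. The order of the WT libraries also differed between markers. Wfdc18, the most abundant of the 16 in WT replicate 3, was at 4412, 5799 and 10474 CPM in WT. Epcam was at 633, 338 and 480 CPM there, highest in replicate 1 as was Kcne3, and Krt8 at 438, 452 and 589 CPM. The part of epithelial content in the Kcne3 difference was not tested.

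The other 5 accessory subunits of potassium channels did not pass the test. Kcnip3, which encodes a calcium sensor that binds Kv4 pores, was at 7.06, 18.5 and 25.5 CPM in WT and at 6.40, 0.0838 and 1.08 CPM in mPGES-1 KO. The groups were apart by a small gap, and the log2 fold change was -2.75 ± 1.31 (adjusted p = 0.312). Kcnab1, Kcnab2, Kcnab3 and Kcne1l had adjusted p values above that of Kcnip3 and overlapping groups.

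**Figure D3:**
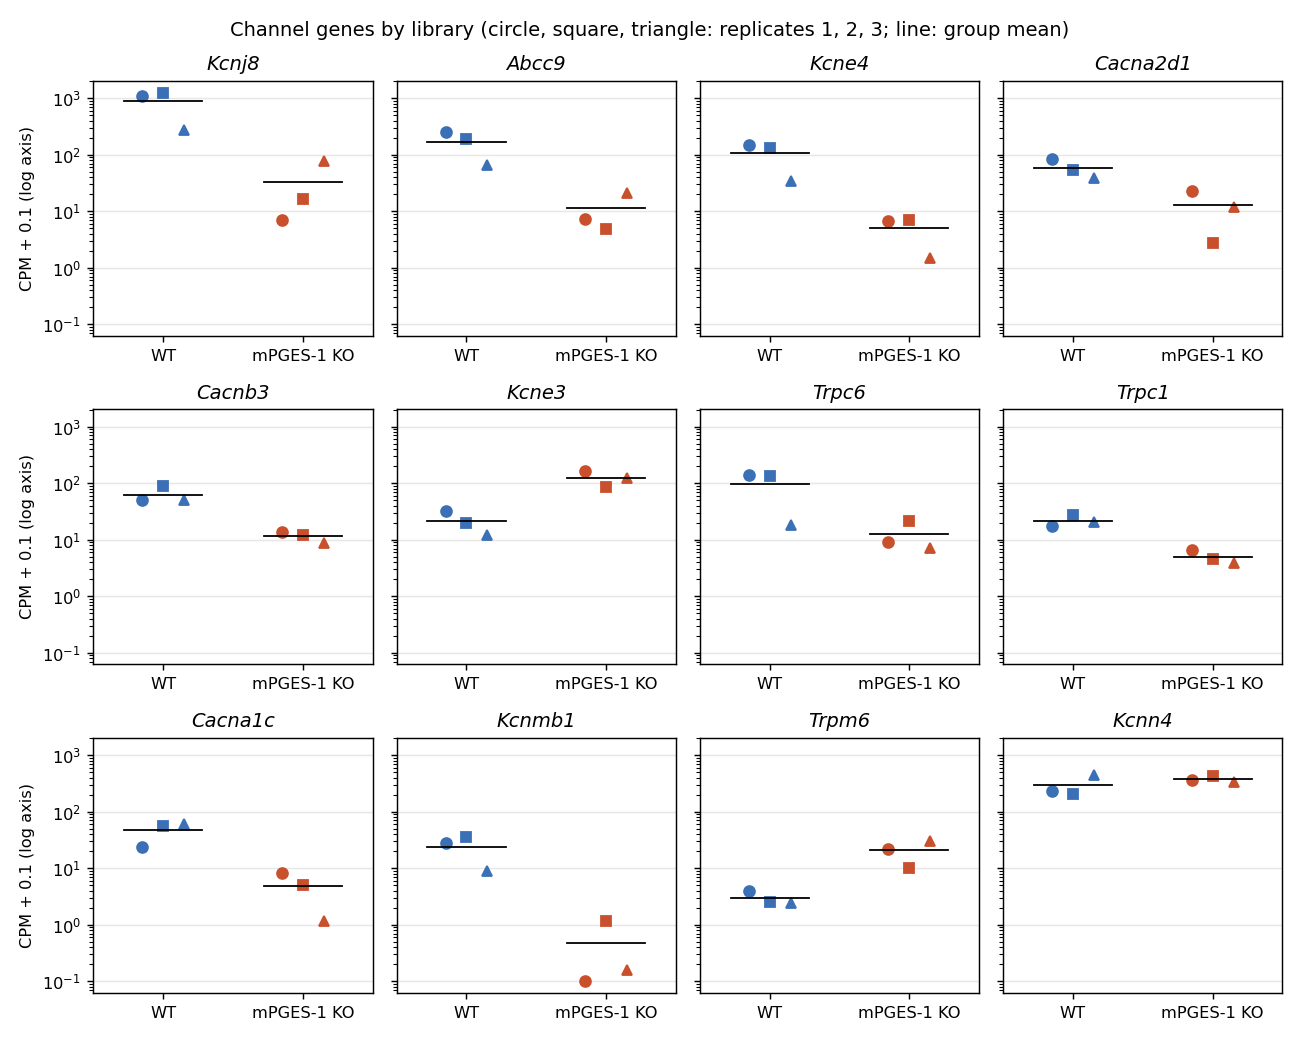
CPM + 0.1 on a log axis in each of the 6 libraries for 12 channel genes, with circles, squares and triangles for replicates 1, 2 and 3 and a line at the group mean. In the panels of Kcnj8, Abcc9, Kcne4, Cacna2d1, Kcne3, Trpc6, Kcnmb1 and Trpm6 the triangle of WT replicate 3 is the lowest WT point. Trpc6 is the 1 of these whose groups overlap, and the groups also overlap for Kcnn4.

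The voltage-gated potassium pores were low throughout. Of 16 symbols 14 were tested, none had a mean above 4.81 CPM, and none was called by edgeR or limma-voom. Kcnq3 and Kcnh8 had an unadjusted p under 0.05 and were called by DESeq2, 1 in each direction. Kcnq3, a subunit of the M-current that damps excitability in neurons, was at 7.15, 5.06 and 0.769 CPM in WT and at 0.183, 0 and 0.0566 CPM in mPGES-1 KO. WT replicate 3 was again the lowest of its group, and the mPGES-1 KO libraries held 7 counts in all (log2 fold change -5.69 ± 1.78, adjusted p = 0.133). Kcng2, a silent subunit that modifies Kv2 pores, was chosen after its values were seen, as the channel gene with no count in any mPGES-1 KO library. It was at 0.0455, 2.97 and 1.59 CPM in the WT libraries, which makes it at least 14.4-fold lower in mPGES-1 KO, against a floor of 3 counts in each library. WT replicate 1, with 2 counts, was itself under that floor, and without WT replicate 2 the bound was 7.67-fold. It did not pass the filter, and intervals and floors here cover counting error only. Kcna3, Kcna6, Kcna7, Kcnd1, Kcnd2, Kcnh1, Kcnh3, Kcnh7, Kcns1 and Kcns3 had overlapping groups, as had Kcnh8. Kcna5 was not analysed here.

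The other inward rectifiers were also low: the 5 symbols Kcnj2, Kcnj10, Kcnj12, Kcnj13 and Kcnj15 had means between 0.388 and 1.47 CPM. Kcnj12, which was not tested, was at 7.99 CPM in WT replicate 1 and at most 0.729 CPM elsewhere. Kcnj2, which encodes Kir2.1 and sets the resting potential of muscle, was at 0.137, 0.629 and 0 CPM in WT and at 2.78, 0.461 and 1.5 CPM in mPGES-1 KO. The groups overlapped (log2 fold change 2.61 ± 1.78, adjusted p = 0.497), and none of the 3 tested had an unadjusted p under 0.05 or was called by DESeq2 or limma-voom.

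Kcnn4 encodes the intermediate-conductance calcium-activated channel KCa3.1, which is known from proliferating fibroblasts, lymphocytes and epithelia. It was at 236, 203 and 441 CPM in WT and at 357, 433 and 340 CPM in mPGES-1 KO. The groups overlapped, and the log2 fold change was 0.36 ± 0.34 (adjusted p = 0.641 in edgeR). Per kilobase of exon it ranked second of the 77 in WT, at 57.4 CPM per kilobase after Kcnj8 at 346, and first in mPGES-1 KO at 73.7. The order of the pores differed between the groups, in part through Kcnj8, which ranked 7th in mPGES-1 KO at 13.2 CPM per kilobase. Other pores changed rank too: Kcnk5 was 16th in WT and 5th in mPGES-1 KO, and Trpc6 was 7th and 14th.

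Kcnmb1, the beta subunit that raises the calcium sensitivity of the large-conductance channel in smooth muscle, was at 27.9, 35.6 and 8.70 CPM in WT and at 0, 1.09 and 0.0566 CPM in mPGES-1 KO, where the counts were 0, 26 and 2. The groups were apart, and the log2 fold change was -6.00 ± 1.59, short of the threshold (adjusted p = 0.0925 in edgeR). Kcnma1, the pore of that channel, was at 8.90, 0.453 and 0.11 CPM in WT and at 0.549, 2.18 and 2.01 CPM in mPGES-1 KO. A single library, WT replicate 1, carried the WT mean of Kcnma1, and without it the log2 fold change turned from -1.0 to 2.48. Kcnn3, a small-conductance channel, was at 12.4 CPM in WT replicate 3 and at most 2.93 CPM in the other 5 libraries, so its log2 fold change of -1.83 turned to 2.18 without that library. Of the 10 calcium- and sodium-activated channel genes 9 had a negative log2 fold change, beside 8543 of all 16543 tested genes. None of the 10 was called by edgeR or limma-voom, while Kcnmb1 had an unadjusted p under 0.05 and was called by DESeq2. Kcnt2 was apart, with every mPGES-1 KO library below WT, and Kcnmb4, Kcnn1, Kcnn2, Kcnt1 and Kcnu1 overlapped.

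Among the two-pore-domain channels, which carry the background potassium leak, Kcnk1 and Kcnk5 were the abundant members. Kcnk5, which encodes TASK-2, was at 1.66, 9.79 and 38.3 CPM in WT and at 56.3, 69.7 and 63.8 CPM in mPGES-1 KO. The mPGES-1 KO libraries were close together and above all WT libraries, which were far apart from each other. Group means were 16.6 ± 19.2 CPM in WT and 63.3 ± 6.72 CPM in mPGES-1 KO (SD, n = 3 each), and the log2 fold change of 1.93 ± 0.91 did not pass (adjusted p = 0.309 in edgeR). Kcnk1, which encodes TWIK-1, was at 83.7, 37.8 and 55.8 CPM in WT and at 72.3, 173 and 117 CPM in mPGES-1 KO. Its groups overlapped through WT replicate 1 (log2 fold change 1.03 ± 0.42, adjusted p = 0.235). Kcnk3, which encodes TASK-1, was at 0.0683, 11.7 and 6.70 CPM in WT and at 0.402, 0 and 0.283 CPM in mPGES-1 KO, so WT replicate 1 lay among the mPGES-1 KO libraries (log2 fold change -4.72 ± 2.03, adjusted p = 0.261). Kcnk2, the mechanically gated TREK-1, was at 7.74 CPM in WT replicate 3 and at most 1.09 CPM elsewhere, and 12.2% of its exonic bases are shared with a gene on the other strand, whose reads cannot be told apart here. Of the 6 tested none was called by edgeR or limma-voom, 2 had an unadjusted p under 0.05 and DESeq2 called Kcnk3. Kcnk6, Kcnk7 and Kcnk12 had overlapping groups.

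**Figure D4:**
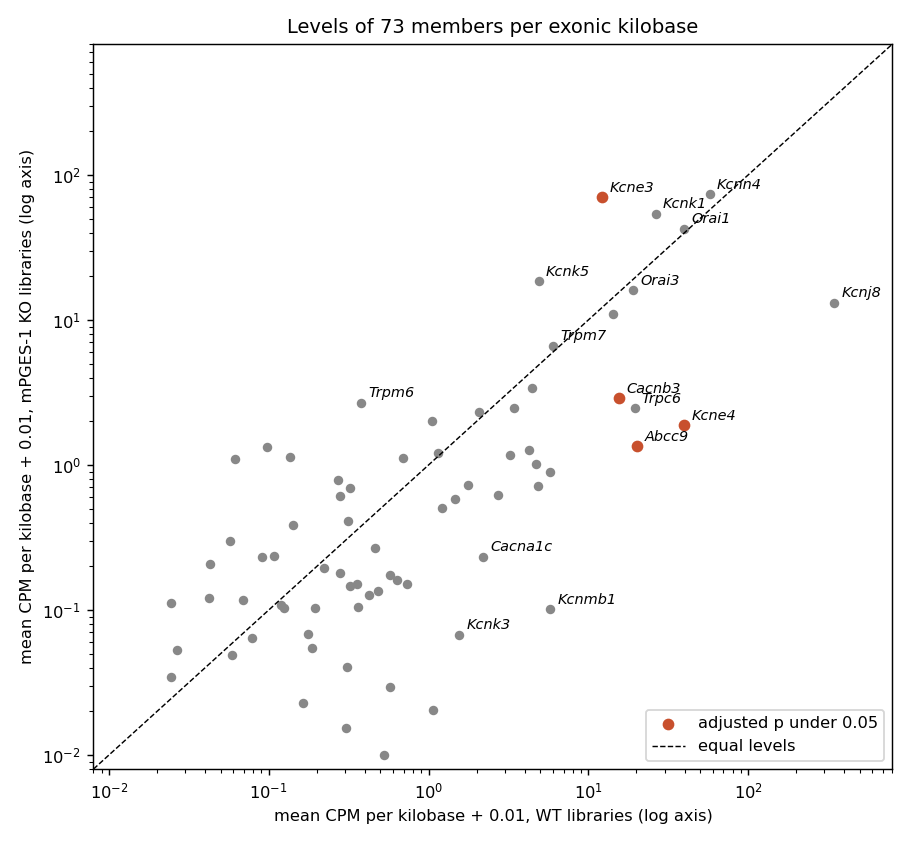
Mean CPM per kilobase of exon, plus 0.01, in the mPGES-1 KO libraries against the WT libraries for 73 channel symbols on log axes, with the diagonal of equal levels and colour for an adjusted p under 0.05. Kcnj8 stands farthest right, at 346 in WT and 13.2 in mPGES-1 KO, while Kcnn4, Orai1 and Orai3 lie near the diagonal and Kcne3 well above it.

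Of the voltage-gated calcium channel genes 1 passed the test, the accessory subunit Cacnb3. Cacnb3 encodes the beta-3 subunit, which brings the pore to the membrane, and lies at chr15:98630840-98644529 in GRCm38. It was at 49.7, 87.9 and 50.7 CPM in WT and at 13.6, 12.2 and 8.69 CPM in mPGES-1 KO. It had the smallest spread of the 5 called genes in the mPGES-1 KO group relative to its mean, and the groups were apart. Cacnb3 fell 5.45 times, from 62.8 ± 21.8 to 11.5 ± 2.54 CPM (SD, n = 3 each; log2 fold change -2.45 ± 0.39 SE, adjusted p = 0.0280 in edgeR), and DESeq2 and limma-voom called it too.

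Cacna1c, the pore of the L-type channel Cav1.2 that drives contraction of smooth muscle, was at 23.6, 56.3 and 59.5 CPM in WT and at 8.27, 4.86 and 1.05 CPM in mPGES-1 KO. Unlike Kcnj8, it was lowest in WT replicate 1 and not in WT replicate 3. Its log2 fold change of -3.30 ± 0.78 missed the threshold (adjusted p = 0.0711 in edgeR). Cacna2d1, the alpha-2-delta subunit that gabapentin binds, was at 83.9, 53.4 and 38.0 CPM in WT and at 23.2, 2.64 and 11.9 CPM in mPGES-1 KO. The groups were apart, and the adjusted p was 0.150 (log2 fold change -2.21 ± 0.73). Cacng4, a transmembrane gamma subunit, was at 1.18, 1.46 and 3.40 CPM in WT and at 0, 0.210 and 0 CPM in mPGES-1 KO, where it had 5 counts in all (log2 fold change -4.83 ± 1.99, adjusted p = 0.240).

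All 7 accessory subunits had a negative log2 fold change, beside 8543 of all 16543 tested genes, and their median was -1.99. In 4 of the 7 (57.1%) every mPGES-1 KO library was below WT, beside 15.7% of all tested genes. The 4 were Cacnb1, Cacnb3, Cacna2d1 and Cacng4, while Cacnb2, Cacnb4 and Cacna2d3 overlapped. DESeq2 called Cacnb3 and Cacna2d1. Of the 4 tested pores 3 had a negative log2 fold change, and none was called by edgeR or limma-voom. Cacna1c had an unadjusted p under 0.05 and was called by DESeq2. The pores of the P/Q-type and T-type channels, Cacna1a and Cacna1g, overlapped between the groups, as did Cacna1e. Cacna1d, the L-type pore Cav1.3, was at 0.182, 0.252 and 0.11 CPM in WT and at 2.49, 1.30 and 0.0850 CPM in mPGES-1 KO and was not tested. Cacna1h was not analysed here.

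TRP channels are cation channels of several families, and the TRPC members act downstream of receptors. Trpc6, a channel opened by diacylglycerol and linked to myofibroblast formation, was at 142, 136 and 18.3 CPM in WT and at 9.0, 21.1 and 7.16 CPM in mPGES-1 KO. WT replicate 3 lay below mPGES-1 KO replicate 2, so the groups overlapped (log2 fold change -2.99 ± 0.79, adjusted p = 0.0934 in edgeR). Without WT replicate 3 the adjusted p was 0.0412. Trpc1, a widely transcribed subunit that joins other TRPC proteins, was at 17.6, 27.4 and 20.2 CPM in WT and at 6.40, 4.40 and 3.85 CPM in mPGES-1 KO. In contrast to Trpc6, WT replicate 3 was close to the other WT libraries, and the log2 fold change was -2.15 ± 0.52 (adjusted p = 0.0734).

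Trpm6, an ion channel fused to a kinase that takes up magnesium in kidney and gut epithelium, was on the other side. It was at 3.80, 2.47 and 2.31 CPM in WT and at 21.7, 9.81 and 30.7 CPM in mPGES-1 KO. All 3 mPGES-1 KO libraries were above WT (log2 fold change 2.86 ± 0.65, adjusted p = 0.0652 in edgeR). Its relative Trpm7, present in most cells, was at 93.4, 56.2 and 54.4 CPM in WT and at 45.9, 116 and 63.2 CPM in mPGES-1 KO, with mixed groups (log2 fold change 0.14 ± 0.41, adjusted p = 0.902). Trpm4, a calcium-activated sodium-permeable channel, overlapped too, at 36.9 ± 12.3 and 26.7 ± 9.55 CPM (SD, n = 3 each; adjusted p = 0.607 in edgeR). Trpv4, which senses osmotic and mechanical stress, was at 1.94 ± 1.13 and 0.512 ± 0.856 CPM (adjusted p = 0.660 in edgeR). DESeq2 called Trpc1 and Trpc6 lower and Trpm6 higher, and limma-voom called none of these. Trpv2 was apart and lower in mPGES-1 KO, and Trpc4, Trpm3 and Trpv3 overlapped. Trpv6 was not analysed here.

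None of the store-operated and stretch-gated channels passed the test. Orai1, the pore of the calcium release-activated channel, was at 125, 73.5 and 74.0 CPM in WT and at 73.3, 93.5 and 127 CPM in mPGES-1 KO. The groups covered the same range, and the log2 fold change was 0.11 ± 0.33 (adjusted p = 0.907 in edgeR). Orai2 was at 6.91 ± 3.03 and 7.30 ± 2.80 CPM and Orai3 at 41.0 ± 12.4 and 34.3 ± 7.84 CPM in WT and mPGES-1 KO (SD, n = 3 each). None of the 3 had an unadjusted p under 0.05, and neither DESeq2 nor limma-voom called any. The standard errors of the 3 log2 fold changes ran from 0.33 to 0.72.

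Piezo2, known from sensory neurons, was at 62.3, 119 and 36.9 CPM in WT and at 36.0, 26.4 and 2.35 CPM in mPGES-1 KO. The groups were apart only by the small gap between WT replicate 3 and mPGES-1 KO replicate 1 (log2 fold change -1.75 ± 0.87, adjusted p = 0.337 in edgeR). Piezo1, which responds to stretch in many cells, was at 11.3, 25.1 and 25.0 CPM in WT and at 33.1, 16.2 and 19.6 CPM in mPGES-1 KO, with overlap (log2 fold change 0.17 ± 0.49, adjusted p = 0.902). The Piezo1 value is uncertain because 24.6% of its exonic bases are shared with Ctu2 on the opposite strand and the libraries do not keep strand. In 7 of the 77 symbols more than 10% of the exonic bases are shared in this way, among them Cacnb4, Kcna6, Kcnj13, Kcnk2 and Kcnmb4. None of the 5 called genes is among them.

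The 2 symbols that are not channel subunits did not pass either. Trpc4ap was at 125 ± 10.7 CPM in WT and 95.6 ± 16.6 CPM in mPGES-1 KO (SD, n = 3 each), with every mPGES-1 KO library below WT and a log2 fold change of -0.39 ± 0.25 (adjusted p = 0.464 in edgeR). Kcnq1ot1 was at 63.3 ± 25.1 and 103 ± 53.3 CPM with overlapping groups (adjusted p = 0.476 in edgeR).

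Of 72 tested partner genes of these channels in 4 lists, edgeR called 1 higher and 3 lower, which is 5.56% beside 2.76% of all tested genes. Over all 16543 tested genes, 3157 had an unadjusted p under 0.05, DESeq2 called 2093 and limma-voom called 438. Of 19 tested genes for calcium release from stores, its sensors and calcium pumps, edgeR called none and limma-voom none, with a median log2 fold change of 0.07, while 5 had an unadjusted p under 0.05 and DESeq2 called 3. Saraf, which slows store-operated entry, was at 252 ± 17.1 and 311 ± 20.5 CPM, Smdt1, a part of the mitochondrial calcium uniporter, at 269 ± 93.1 and 154 ± 43.7 CPM, and Atp2a2, the store pump SERCA2, at 99.2 ± 28.1 and 126 ± 45.6 CPM (SD, n = 3 each). Of 22 genes for calmodulin, calcineurin and NFAT, 2 were called, both lower: Calm3, which encodes calmodulin, fell from 265 ± 75.9 to 72.0 ± 2.16 CPM, and Nfatc4, a transcription factor that calcineurin activates, fell from 44.1 ± 29.1 to 3.09 ± 0.669 CPM (n = 3 each). The median of the 22 was 0.17, and 7 had an unadjusted p under 0.05. DESeq2 called 3 of them higher and 3 lower, and limma-voom called Calm3 alone.

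Of 19 tested genes for the sodium pump and for chloride and cation transport, 1 was called in each direction, with a median log2 fold change of -0.18. Clcn3, an endosomal chloride-proton exchanger, rose from 30.6 ± 6.69 to 90.3 ± 20.9 CPM, and Clcn2, a chloride channel of the plasma membrane, fell from 17.9 ± 12.2 to 0.495 ± 0.242 CPM (SD, n = 3 each). In this list 8 genes had an unadjusted p under 0.05, DESeq2 called 3 higher and 4 lower, and limma-voom called 3 higher, Clcn3 among them, and none lower. Over all 16543 tested genes, 3157 had such a p and DESeq2 called 2093. The last list held 12 tested genes outside the naming rule: polycystins, mucolipins, other lysosomal channels, and Tmem63a, Tmem63b, Tmem38a and Tmem38b. Of these edgeR and limma-voom called none, 3 had an unadjusted p under 0.05, DESeq2 called 2 and the median was -0.78. In this last group Pkd2, polycystin-2, was at 69.4 ± 8.29 and 29.1 ± 19.0 CPM, and Mcoln1, the lysosomal channel mucolipin-1, at 69.9 ± 15.7 and 38.0 ± 17.6 CPM (SD, n = 3 each).

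Markers of other cell types that a tumour sort can hold summed to smaller shares than the fibroblast and luminal markers, though single genes were abundant. In WT and mPGES-1 KO, Lyz2 of the leukocyte list was at 225 ± 142 and 543 ± 314 CPM (SD, n = 3 each). Fabp4 of the adipocyte list was at 457 ± 175 and 171 ± 126 CPM, and the groups overlapped for both. Sox10 of the Schwann cell list was at 70.8 ± 15.1 and 136 ± 9.29 CPM, with the groups apart. The summed counts were 0.00728% and 0.0117% of the WT and mPGES-1 KO counts for basal epithelium, 0.00652% and 0.00499% for endothelial cells, 0.0323% and 0.0698% for leukocytes, 0.0116% and 0.0184% for Schwann cells and neurons, and 0.0464% and 0.0171% for adipocytes. edgeR and limma-voom called none of these markers. In that order 3, 8, 9, 6 and 4 of them were tested. At an unadjusted p under 0.05 were 0, 2, 1, 2 and 1, and DESeq2 called 0, 2, 1, 2 and 0. Over all 16543 tested genes these counts were 3157 and 2093.

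**Figure D5:**
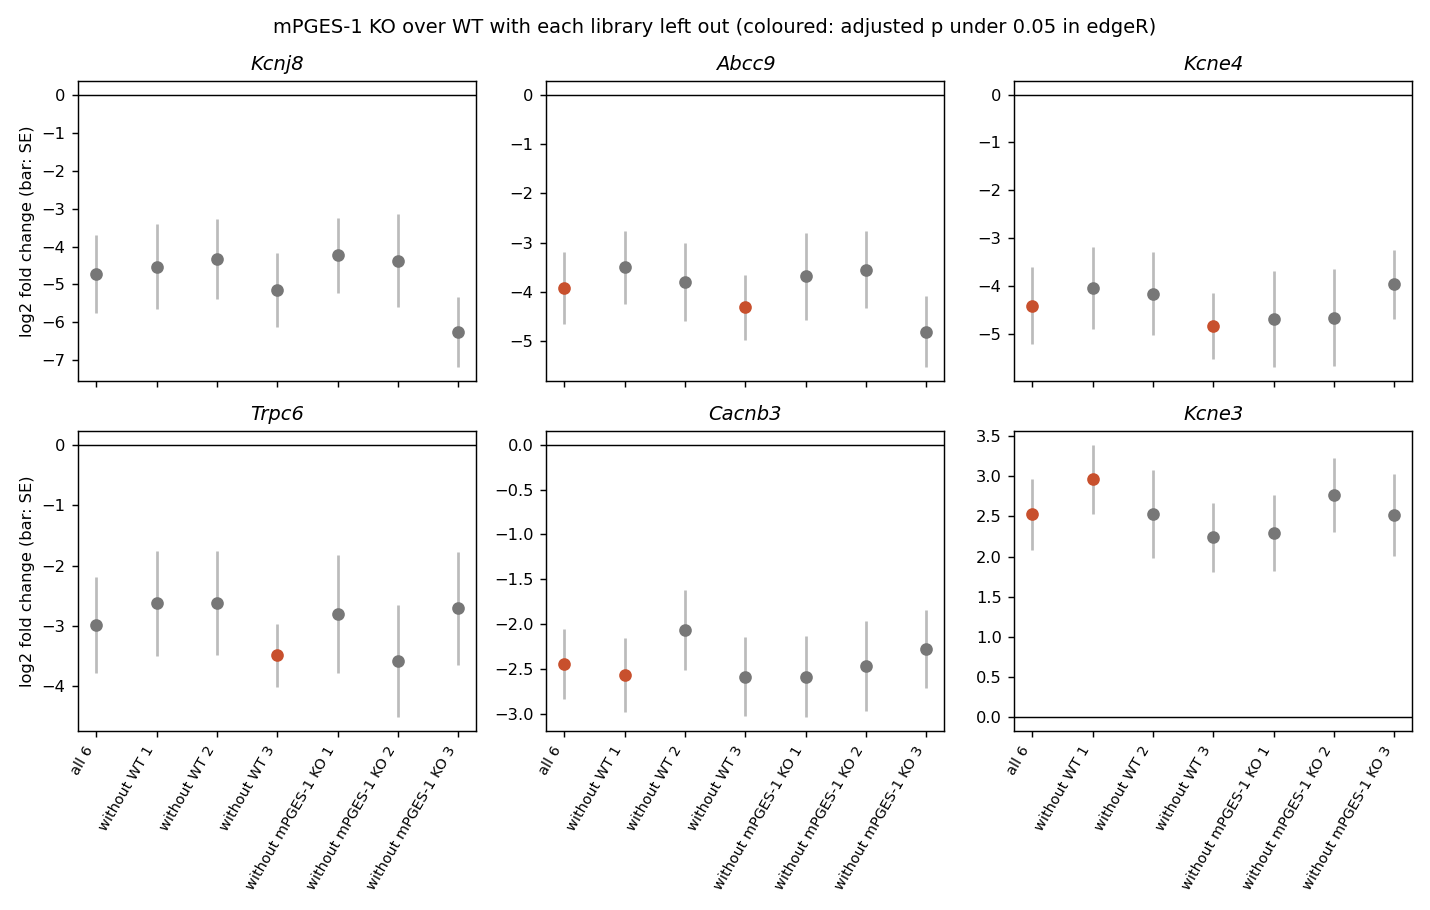
Log2 fold change of mPGES-1 KO over WT, with bars for the standard error, for Kcnj8, Abcc9, Kcne4, Trpc6, Cacnb3 and Kcne3 in the fit of all 6 libraries and with each library left out, coloured where the adjusted p in edgeR was under 0.05. All points keep the sign of the fit of all libraries, and with a library left out the coloured points are those without WT replicate 1 (Cacnb3 and Kcne3) or without WT replicate 3 (Abcc9, Kcne4 and Trpc6).

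The 5 calls depended on the full set of libraries. Without WT replicate 2, or without mPGES-1 KO replicate 1, 2 or 3, no channel gene was called. Without WT replicate 1 the calls were Cacnb3 and Kcne3, and without WT replicate 3 they included Abcc9, Kcne4 and Trpc6. The adjusted p over these fits ran from 0.0343 to 0.128 for Cacnb3, from 0.0307 to 0.129 for Kcne3, from 0.0358 to 0.135 for Kcne4 and from 0.0438 to 0.139 for Abcc9. The size of each difference moved less: the log2 fold change stayed between -2.58 and -2.07 for Cacnb3, 2.24 and 2.96 for Kcne3, -4.83 and -3.96 for Kcne4, and -4.81 and -3.50 for Abcc9. Over all genes the number of calls fell from 456 to 1 without WT replicate 2 and to 0 without mPGES-1 KO replicate 2 or 3.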

How the data were processed

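RNA-seq counts of 6 libraries, 3 of each genotype label, were analysed. Per the labels' protocols, cDNA was amplified by 16 PCR cycles with no molecular identifiers and sequenced as single reads of 75 cycles without strand, so PCR copies count as reads. The authors deposited raw counts per gene symbol with no normalization. STAR, FastQC 0.11.5 and the build mm10 are named in the submitters' processing notes, and the sources used here give neither the counting program nor the annotation. Whether each library is a separate animal is not in the labels, and p-values then measure only the spread between libraries, which may be technical.

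The test was that of edgeR 4.0.16 in R 4.3.3 (filterByExpr, TMM, robust quasi-likelihood test, two-sided), with Benjamini-Hochberg adjustment over 16543 genes and a call at an adjusted p under 0.05. Every adjusted p is from this fit unless another tool is named. CPM are counts over TMM-scaled totals, and the standard error (SE) is the absolute log2 fold change over the square root of F. With a common biological coefficient of variation of 0.818, narrow differences could not be called. DESeq2 1.42.0, limma-voom (limma 3.58.1), other scalings and filters, the replicate number as a block and each library left out were alternatives. Positions and exonic lengths are from GENCODE M21 (GRCm38, the assembly of mm10), where 17663 symbols matched 1 gene, 509 none and 25 several. Promoter windows are from RefSeq on GRCm38.p6.

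The channel genes and the marker and partner lists were chosen with earlier results of these data known. Named channel genes are those called, the 12 with the highest mean CPM, the 10 largest differences at a mean of 1 CPM or more with groups apart, and the members in the table of a list of 33 genes chosen by role. Other channel genes are named only to account for them, after their values were seen. Up to 4 genes of each other list were eligible to be named, called genes first. Cnn1, Myh11, Wfdc18, Elf5 and Muc1 are named beyond this, after their values were seen, because their groups overlapped. A few genes that the rules pick out are counted but not reported here.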

Additional observations from a re-analysis of the deposited data

How the results depend on the processing

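The same 5 channel genes were called under both other library scalings and with no filter, and a filter of 1 CPM in 3 libraries added Kcnj8. The counts of channel genes called higher and lower were 3 and 12 with DESeq2, 1 and 2 with limma-voom (Kcne3, Cacnb3 and Kcnj8), 0 and 0 with the replicate block, and 2 and 9 at an adjusted p under 0.1. With each library left out they ran from 0 to 1 and from 0 to 4. Over all genes, the counts higher and lower were 996 and 1097 with DESeq2, 0 and 0 with the replicate block, 480 and 633 at an adjusted p under 0.1, and from 0 to 327 and from 0 to 241 with each library left out. The median log2 fold change of the tested channel genes was -0.77 with the 1 CPM filter, which tests fewer genes, -0.82 with the replicate block, and from -1.24 to -0.18 with each library left out. Deviations of same-numbered libraries from their group means had correlations of -0.063, 0.028 and -0.017 over 16543 genes. Those of libraries with unlike numbers ran from -0.052 to 0.063. The labels do not say whether equal numbers mark a shared litter, day or batch, and these correlations cannot decide it with 3 libraries per group.

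Among the named channel genes, direction reversed for Kcnma1 (0.68 with limma-voom, 1.49 with the replicate block, -1.57 to 2.48 with each library left out), Kcnn3 (1.62 with the replicate block, -3.53 to 2.18) and Kcnk2 (1.14 with limma-voom, 0.84 with the replicate block, -2.31 to 1.41). The cause was not tested. With each library left out, Orai1 ran from -0.12 to 0.43, Trpm7 from -0.29 to 0.47, Piezo1 from -0.19 to 0.39, Orai2 from -0.28 to 0.50 and Orai3 from -0.46 to 0.0114. DESeq2 gave no adjusted p for Kcnma1, and Kcnq3, Kcnn3, Kcnk2, Kcnk3 and Kcnj2 had no value under the 1 CPM filter. The mean was under 1 CPM for 21 of the 77 channel genes, where few counts stand behind each value, and the 7 that did not pass the filter were not tested.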

Other observations

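Per kilobase of exon, the channel transcripts of the WT libraries were led by Kcnj8 (346 ± 207 CPM per kilobase, SD, n = 3), Kcnn4 (57.4 ± 25.3), Kcne4 (39.7 ± 23.3), Orai1 (39.6 ± 12.9) and Kcnk1 (26.4 ± 10.3). Those of the mPGES-1 KO libraries were led by Kcnn4 (73.7 ± 9.66), Kcne3 (69.9 ± 21.4), Kcnk1 (54.0 ± 22.5), Orai1 (42.7 ± 11.8) and Kcnk5 (18.6 ± 1.97). Kcnn4, Orai1 and Kcnk1 are among the top 5 in both groups, and none of the 3 was called.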
